A study of Mus musculus with 7 samples.

Results

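The 10 genes Cpt1b, Cpt2, Acadvl, Acadl, Acadm, Hadha, Hadhb, Ech1, Eci1 and Etfdh encode enzymes that carry long-chain fatty acids into mitochondria and break them down by beta-oxidation. They were chosen by gene name and are 10 of the 49584 genes in the deposited count tables. The study sequenced small RNA in crude mitochondrial preparations of the mouse heart, with and without a conditional knockout of Tefm, the mitochondrial transcription elongation factor. The 4 knockout libraries (titled L/L, cre; genotype Tefm -/-) came from mice in which Cre recombinase, driven by the muscle creatine kinase promoter, had removed a loxP-flanked Tefm exon. The 3 control libraries (titled L/L; genotype tag Tefm +/+) came from mice without Cre. The titles put the loxP-flanked (L/L) alleles in both groups, so the groups differed by Cre as well as by the loss of Tefm. The muscle creatine kinase promoter is active in heart and skeletal muscle, and is not known for activity in the other cells of the heart. The study's design text names 4 separate mice per group, with 3 controls analysed here. The labels give no age.

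In beta-oxidation a fatty acid is first bound to coenzyme A (CoA), passed across the inner membrane as a carnitine ester, and then shortened in repeated cycles of oxidation, hydration, oxidation and thiolysis that release acetyl-CoA. Acyl-CoA dehydrogenases that prefer different chain lengths open each cycle, and the membrane-bound trifunctional protein completes it for long chains. Electrons from the first oxidation pass through electron transfer flavoprotein to the ubiquinone pool of the respiratory chain. The pathway is the main fuel route of the adult heart, and its genes are known targets of the PPAR and estrogen-related nuclear receptors.

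Small RNA libraries capture short RNAs, so a count for one of these genes is a short fragment of its messenger RNA in the mitochondrial preparation and not a measure of whole messenger RNA in the cell. Total counts were 973835 to 2570739 per library, and nuclear protein-coding genes took 29203 to 188642 of them, or 2.28% to 18.2%. All levels below are scaled counts, meaning counts per 100000 nuclear protein-coding counts of the same library. Tefm itself had 0, 2 and 1 counts in the control libraries and 0, 1, 0 and 2 in the knockouts, so this depth could not show its loss, nor check the labels by it. Small RNA content differed widely between libraries: the log2 ratio of microRNA and snoRNA to nuclear protein-coding counts was 2.88, -1.35 and 0.61 in the controls and 1.84, 3.11, 0.54 and -2.44 in the knockouts. Lars2 alone held 16.6% of nuclear protein-coding counts in control 2 and 3.25% to 9.06% in the other libraries. The cardiomyocyte markers (9 of 9 detected, none at 0) summed to between 5357 and 8392 scaled counts in the controls and between 3639 and 5023 in the knockouts, which did not overlap. The sum was weighted towards Myh6, at 2879 ± 785 (SD, n = 3) and 2009 ± 246 (SD, n = 4). Singly, 5 of the 9 markers were lower in every knockout, Tnnt2, Myl2 and Pln overlapped, and Mybpc3 was higher in every knockout, at 258 ± 75.4 (SD, n = 3) and 565 ± 37.1 (SD, n = 4). edgeR called 0 of the 9, and Tnni3, Ryr2 and Mybpc3 had an unadjusted p under 0.05. Skeletal muscle markers, nearly all Ckm, which heart also expresses, summed to 139 to 196 and 82.9 to 89, with Actn3 at 0. Fibroblast markers summed to 464 to 777 and 462 to 1076, white blood cell markers to 66.5 to 97.4 and 30.5 to 65, erythroid markers to 18.7 to 35.4 and 11.1 to 41.1, and liver markers to 0.624 to 1.96 and 0 to 10.3, in controls and knockouts. Of the markers of other cell types edgeR called 2: the fibroblast gene Postn, which rose with a log2 fold change of 2.85 ± 0.50 (SE; adjusted p = 0.0161), and the antigen presentation gene Cd74, which fell from 27.9 ± 4.48 (SD, n = 3) to 6.77 ± 3.7 (SD, n = 4) scaled counts (adjusted p = 0.0191, edgeR). Neither overlapped between the groups. Dcn, of the same fibroblast list as Postn, was lower in every knockout and was not called. Its scaled counts were 241 ± 63.5 (SD, n = 3) and 158 ± 37.4 (SD, n = 4). The other fibroblast markers overlapped between the groups. Ptprc, of the same white blood cell list as Cd74, was higher in every knockout, on too few counts to test. It stood at 1.26 ± 1.27 (SD, n = 3) and 5.68 ± 2.36 (SD, n = 4) scaled counts. The other white blood cell markers overlapped between the groups.

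The enzymes did not all lie on the same side in the knockouts. Cpt2 and the auxiliary isomerases Ech1 and Eci1 were lower in all 4 knockouts than in all 3 controls, by 2.24-fold to 2.94-fold. Hadha was higher in all 4 knockouts, by 1.59-fold, and its partner Hadhb lay on the same side. None of these differences passed an adjusted p of 0.05 in edgeR's quasi-likelihood test: 0 of the 9 enzymes tested were called, where 9.86% of all 1602 features tested were called (8.3% higher and 1.56% lower in the knockouts). At an unadjusted p under 0.05 there were 4 of 9 enzymes, against 27.7% of all features, and DESeq2 on the same scaling called 3 of 9, all lower, against 3.63% of all features called lower. The groups did not overlap, with the knockouts lower, for 3 of 9 enzymes against 7.37% of all features, and with the knockouts higher for 1 of 9 against 19.9%. The median log2 fold change, knockout over control, was -0.02 for the 9 enzymes and 0.27 for all features tested. Summed over all 10 genes, the scaled counts were 664 ± 189 (SD, n = 3) in the controls and 695 ± 161 (SD, n = 4) in the knockouts. That sum joins Cpt2, Ech1 and Eci1, lower in every knockout, with Hadha, higher in every knockout, none of them called by edgeR on this scaling.

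**Figure D1:**
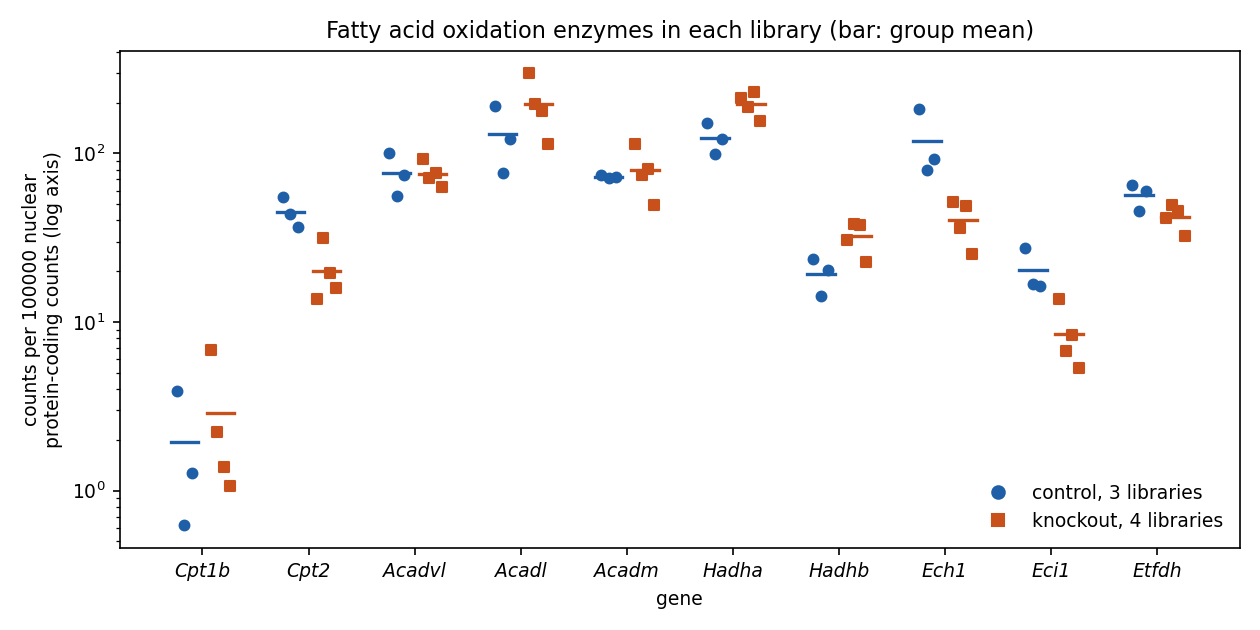
Scaled counts (counts per 100000 nuclear protein-coding counts, log axis) of the 10 enzymes in each of the 3 control (circles) and 4 knockout (squares) libraries, with bars at the group means. For Cpt2, Ech1 and Eci1 every knockout lies below every control, for Hadha every knockout lies above, and the other enzymes overlap between the groups.

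Carnitine transfer uses carnitine palmitoyltransferase on both mitochondrial membranes. Cpt1b, the muscle form on the outer membrane and the regulated entry step, had 2, 1 and 1 counts in the controls and 2, 1, 1 and 2 in the knockouts, too few to test. On mouse build GRCm38 (mm10) it lies at chr15:89416405-89425863 on the minus strand, and 81.4% of its exon length is shared with the readthrough gene Gm44502 on the same strand. The deposited counts hold no row for Gm44502 by name or identifier, so reads shared with it cannot be traced there. On so few counts the level of Cpt1b is uncertain.

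Cpt2, on the inner membrane, turns the carnitine ester back into acyl-CoA in the matrix. Its scaled counts were 54.8, 43.7 and 36.7 in the controls and 13.7, 31.4, 19.4 and 15.9 in the knockouts, from 127 counts in all controls and 62 in all knockouts. All 4 knockouts lay below the lowest control, and knockout 2 was nearest to it. The means were 45 ± 9.13 (SD, n = 3) and 20.1 ± 7.88 (SD, n = 4), and edgeR gave a log2 fold change of -1.16 ± 0.32 (SE) with an adjusted p of 0.0548. In bulk samples such as these, fewer cells of a type and less RNA per cell cannot be told apart, and 5 of 9 cardiomyocyte markers were lower in every knockout too, while Mybpc3 was higher; their part in this result was not tested. Cpt2 spans chr4:107903981-107923610 on the minus strand in 5 exon blocks, shares no exon with another gene and none of its 25-base stretches with another transcript. The 80 bases before its start, chr4:107923611-107923690 (minus strand, RefSeq promoter table on GRCm38.p6), are shown because Cpt2 was lower in every knockout, with GC boxes (GGGCGG, bound by Sp1-type factors) in capitals.
Cpt2: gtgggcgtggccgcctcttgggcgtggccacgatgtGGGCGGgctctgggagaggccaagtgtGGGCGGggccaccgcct

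The acyl-CoA dehydrogenases, which take very long, long and medium chains, showed no difference beyond the spread of the libraries. Acadvl, the membrane-bound form for the longest chains, stood at 99.8, 56.2 and 74.6 scaled counts in the controls and 92.5, 71.7, 76.3 and 63.1 in the knockouts. The knockout values lay inside the control range. Its log2 fold change was -0.02 ± 0.32 (SE; adjusted p = 0.987, edgeR). Exons of Dvl2 on the other strand overlap 42.9% of its exon length (chr11:70010183-70015411), and Dvl2 held at most 3 counts in any library. The sources do not say how strand was treated. Reads left out of both genes would not show in the Dvl2 counts, so the level of Acadvl carries this limit.

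Acadl, the long-chain form (chr1:66830839-66863277, minus strand), had 192, 76.7 and 121 scaled counts in the controls and 298, 197, 179 and 113 in the knockouts. The groups overlapped, with control 1 above knockouts 3 and 4. The log2 fold change was 0.60 ± 0.51 (SE; adjusted p = 0.506, edgeR), the widest error of the 9 enzymes. Acadm, the medium-chain form (chr3:153922357-153944632, minus strand), was nearly constant in the controls at 74.3, 71.8 and 72.1, and spread from 49.3 in knockout 4 to 113 in knockout 1 around intermediate values of 74 and 80.5. Its log2 fold change was 0.11 ± 0.34 (SE; adjusted p = 0.891, edgeR). A processed pseudogene of Acadm, Gm5131, held 6 to 21 counts per library, and adding them to Acadm moved its log2 fold change to -0.05 ± 0.38 (SE), a sum chosen after the counts had been seen.

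The trifunctional protein is an assembly of alpha subunits, encoded by Hadha, with hydratase and hydroxyacyl-CoA dehydrogenase activity, and beta subunits, encoded by Hadhb, with thiolase activity. Both genes lie head to head on chromosome 5, Hadha at chr5:30118304-30155162 on the minus strand and Hadhb at chr5:30155248-30184593 on the plus strand. The 85 bases between their starts (chr5:30155163-30155247, plus strand, RefSeq promoter table on GRCm38.p6) are shown because this stretch is shared by both genes, with GC boxes in capitals.
Hadha and Hadhb: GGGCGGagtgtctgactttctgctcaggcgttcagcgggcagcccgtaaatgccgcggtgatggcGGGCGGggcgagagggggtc

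Hadha scaled counts were 151, 98.6 and 121 in the controls and 212, 188, 232 and 155 in the knockouts. Every knockout lay above every control, though knockout 4 exceeded control 1 by a small margin. The means were 124 ± 26.1 (SD, n = 3) and 197 ± 33.2 (SD, n = 4), with a log2 fold change of 0.67 ± 0.38 (SE; adjusted p = 0.302, edgeR). Hadhb stood at 23.5, 14.4 and 20.2 in the controls and 30.8, 38.1, 37.5 and 22.8 in the knockouts. Only control 1 and knockout 4 crossed. Its log2 fold change was 0.75 ± 0.29 (SE; adjusted p = 0.145, edgeR), and it was the 1 enzyme besides Cpt2, Ech1 and Eci1 with an unadjusted p under 0.05. The beta to alpha ratio of counts within a library was 0.156 ± 0.011 (SD, n = 3) in the controls and 0.164 ± 0.027 (SD, n = 4) in the knockouts, and the groups overlapped.

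The Hadhb values, and with them the ratio of Hadhb to Hadha, carry a limit from near-identical sequence. The processed pseudogene Gm13910, with 94.7% of its 25-base stretches found in Hadhb transcripts, held 46, 72 and 35 counts in the controls and 30, 31, 49 and 82 in the knockouts, more than Hadhb itself in every library. With both summed, the log2 fold change was 0.38 ± 0.40 (SE; adjusted p = 0.598, edgeR; summed after the counts had been seen). The sources used here do not say how reads that match both places were assigned. The ratio to Hadha was not taken with both summed, so its near-constancy is not secured.

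Ech1 and Eci1 are auxiliary isomerases that move double bonds of unsaturated fatty acids into positions the main cycle can use. Ech1, the dienoyl-CoA isomerase, stood at 182, 79.2 and 92.3 scaled counts in the controls and 51.4, 35.9, 48.6 and 25.4 in the knockouts. All knockouts lay below the lowest control, and control 1 stood apart on the high side. The means were 118 ± 55.9 (SD, n = 3) and 40.3 ± 12 (SD, n = 4), from 293 and 114 counts, and the log2 fold change was -1.56 ± 0.42 (SE; adjusted p = 0.0525, edgeR), the lowest of the 9 enzymes. Without control 1 it was -1.11, with an adjusted p of 0.114 (edgeR).

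Eci1, an enoyl-CoA isomerase, was rarer, with 27.4, 16.8 and 16.4 scaled counts in the controls and 13.7, 6.72, 8.33 and 5.3 in the knockouts. The groups again did not overlap, although knockout 1 rests on 4 counts and knockout 2 on 3. Its log2 fold change was -1.38 ± 0.38 (SE; adjusted p = 0.0548, edgeR). The same 5 of 9 cardiomyocyte markers moved with both isomerases and Mybpc3 against them, and their part was not tested. Ech1 lies at chr7:28825217-28832247 and Eci1 at chr17:24426641-24439348, both on the plus strand and free of exons of other genes. The 80 bases before each start (chr7:28825137-28825216 and chr17:24426561-24426640, plus strand, RefSeq promoter table on GRCm38.p6) are shown because both genes were lower together, with GC boxes in capitals.
Ech1: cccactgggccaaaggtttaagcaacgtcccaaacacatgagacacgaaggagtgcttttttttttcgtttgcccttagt
Eci1: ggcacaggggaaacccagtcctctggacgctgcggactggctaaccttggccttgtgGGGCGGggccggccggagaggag

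The stretches differed in composition, with 46.2% G and C for Ech1 against 70% for Eci1 and 75% for Cpt2. In the RefSeq promoter windows around gene starts, searched on both strands, GGGCGG was present for 7 of the 9 enzymes listed there and for 35.7% of all 32851 windows of the same length. Enzymes were counted by gene and the background by window. Hadha and Hadhb are both among the 7, and their windows can hold the same GC boxes. The nuclear receptor motif AGGTCA was present for Acadm and Acadvl, or 2 of 9, and for 16.3% of all windows. The extended motif TCAAGGTCA, which contains AGGTCA and is bound by estrogen-related receptors, was present for 0 of 9 and for 0.423% of all windows. A match describes letters in the window and not a bound site.

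Etfdh, which passes the electrons of the acyl-CoA dehydrogenases from electron transfer flavoprotein to ubiquinone, had 64.6, 45.5 and 59.5 scaled counts in the controls and 41.1, 49.3, 45.8 and 32.3 in the knockouts. Knockouts 2 and 3 lay within the control range. The log2 fold change was -0.43 ± 0.26 (SE; adjusted p = 0.346, edgeR). Its place is chr3:79603788-79629500 on the minus strand.

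Within a library, counts of 2 genes can be compared without any choice of scale. Relative to Hadha, chosen as the divisor after its values had been seen, Ech1 stood at 1.21, 0.804 and 0.76 in the controls and at 0.242, 0.19, 0.21 and 0.164 in the knockouts. This was the widest separation among the enzymes. Eci1 over Hadha was 0.163 ± 0.024 (SD, n = 3) in the controls and 0.043 ± 0.015 (SD, n = 4) in the knockouts, and Cpt2 over Hadha was 0.37 ± 0.071 and 0.104 ± 0.044. Etfdh kept the same order, at 0.46 ± 0.031 and 0.215 ± 0.032, as did Acadvl, at 0.616 ± 0.046 and 0.388 ± 0.045. These 5 of 8 ratios did not overlap between the groups, against 20.2% of all features lower over Hadha in every knockout, while Acadl, Acadm and Hadhb overlapped. The spread between libraries narrowed for several enzymes: Etfdh over Hadha ran from 0.429 to 0.49 in the controls. A ratio shows unequal change of its 2 genes and does not say which of them moved.

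**Figure D2:**
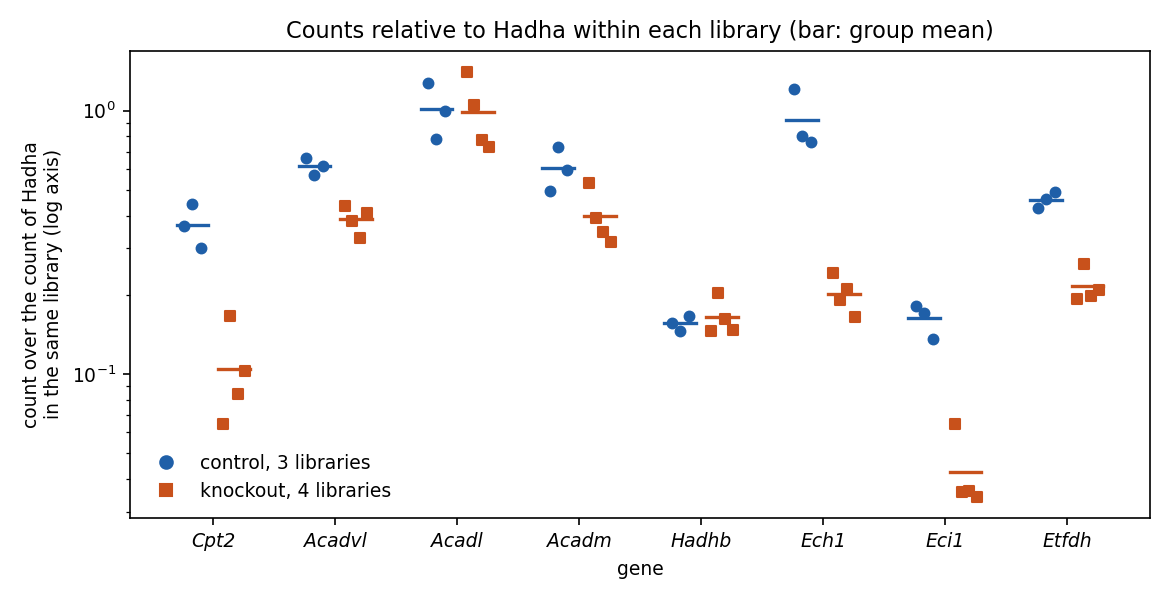
Counts of each enzyme divided by the Hadha count of the same library (log axis), in 3 control (circles) and 4 knockout (squares) libraries, with bars at the group means. Ech1, Eci1, Cpt2, Etfdh and Acadvl separate the groups, and Hadhb stays between 0.145 and 0.202 in all 7 libraries. Counts of the Hadhb pseudogene Gm13910 are not included.

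Levels of different genes were compared per kilobase of principal transcript, as scaled counts per kilobase. In the controls Ech1 ranked first at 93 ± 44.1 (SD, n = 3), followed by Acadl at 67.8 ± 30.3, Acadm at 35.5 ± 0.687, Acadvl at 35.5 ± 10.1, Hadha at 30.8 ± 6.5 and Etfdh at 23.8 ± 4.14. Cpt2 at 19 ± 3.85, Eci1 at 17.8 ± 5.46, Hadhb at 9.45 ± 2.26 and Cpt1b at 0.668 ± 0.602 closed the order. The spreads of Ech1 and Acadl overlapped, as did those of Acadm, Acadvl and Hadha, and of Cpt2 and Eci1. Compared within each control library, Ech1 stood above Acadl and Acadvl above Hadha in all 3. The order of Acadm against Acadvl and Hadha, and of Cpt2 against Eci1, changed between control libraries. In the knockouts Acadl led at 103 ± 39.9 (SD, n = 4), Hadha followed at 49 ± 8.26, and Ech1 was the fifth at 31.8 ± 9.46. Hadhb, at 15.8 ± 3.49, stood above Cpt2 at 8.48 ± 3.32 and Eci1 at 7.49 ± 3.23, the reverse of their order in the controls. Counts of the pseudogene Gm13910 were not added to Hadhb, and Cpt1b rests on 1 to 2 counts per library. Reads in exons shared with Dvl2 may be missing from Acadvl. The places of Hadhb, Cpt1b and Acadvl in both orders, and the reversal of Hadhb with Cpt2 and Eci1, are therefore uncertain.

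**Figure D3:**
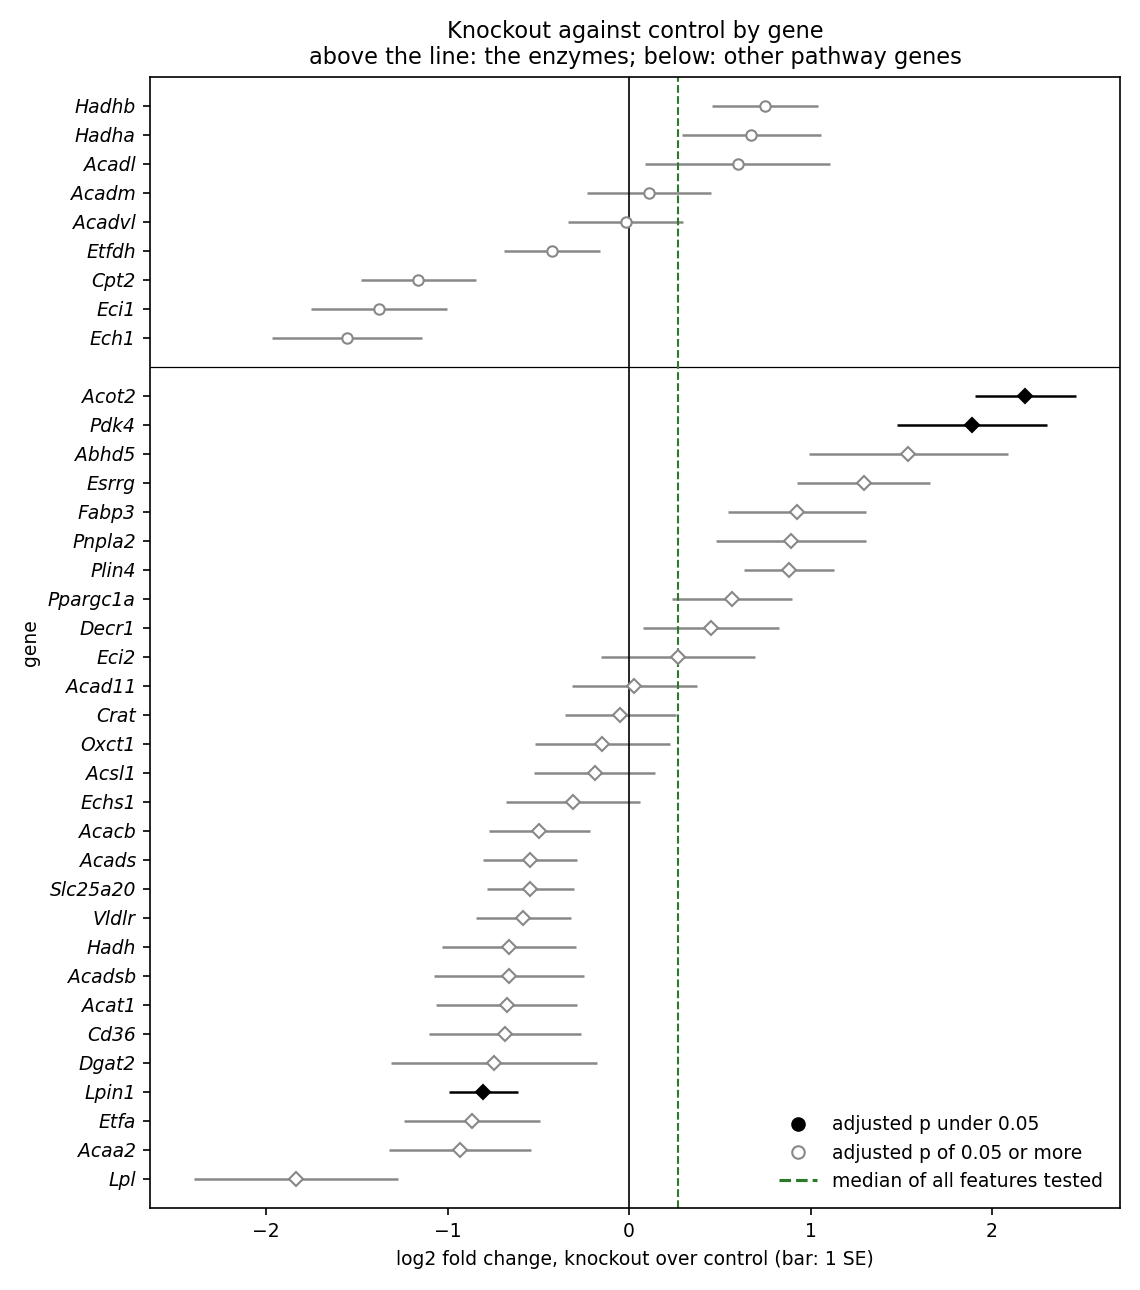
Log2 fold change, knockout over control, with 1 SE from edgeR's quasi-likelihood fit, for the 9 enzymes tested (above the line) and 28 of the 29 other pathway genes tested (below). Filled points passed an adjusted p of 0.05 (Acot2, Pdk4 and Lpin1), and the dashed line marks the median of all features tested, 0.27.

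The values of Cpt2, Ech1 and Eci1 sat near the threshold, and their call depended on the scaling, the tool, the genes fitted and the filter. The median of all features was 0.27 under the main scaling and 0.03 when TMM factors (trimmed means of M values, which assume that most genes do not change) were computed over nuclear protein-coding genes. On that scale Cpt2 was at -1.40 (adjusted p = 0.0403), Ech1 at -1.79 (adjusted p = 0.037) and Eci1 at -1.62 (adjusted p = 0.0354, edgeR), and these 3 enzymes were called lower against 2.75% of all features. The same 3 were called by DESeq2 on the main scaling (adjusted p 0.013, 0.00265 and 0.0427), with TMM over all features (2.13% called lower), with DESeq2 size factors (3.18%), with the 10 most abundant genes left out of the total (2.8%) and with nuclear protein-coding genes fitted alone (4.8%, main scaling), and Cpt2 and Ech1 at a minimum count of 20 (2.1%). With TMM over nuclear protein-coding genes, leaving out any 1 library ended all these calls but Eci1 without knockout 1 and Cpt2 without knockout 2. Those were also the only enzymes called with a library left out under the main scaling.

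With the log2 ratio of small RNA to protein-coding counts as a term in the fit, Cpt2 was at -1.15, Ech1 at -1.48, Eci1 at -1.33 and Hadhb at 0.77, all at an adjusted p of 0.0352 or below in edgeR, against 27.7% of all features called in that fit. Scaling to total, mitochondrially encoded or microRNA counts moved the median of all features to between 0.89 and 1.16, and no enzyme was called there. Under every one of these scalings Cpt2, Ech1, Eci1, Etfdh, Acadm and Acadvl lay below the median of all features and Acadl, Hadha and Hadhb above it, although the signs of Etfdh, Acadm and Acadvl themselves changed.

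**Figure D4:**
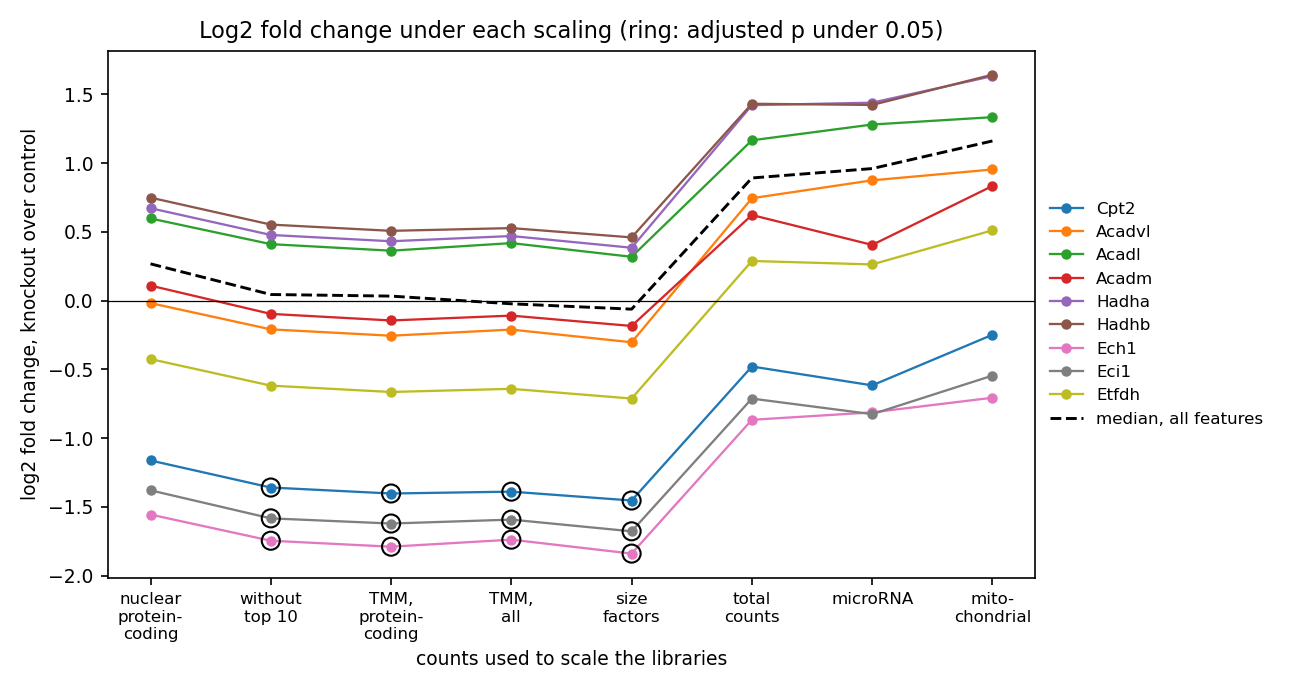
Log2 fold change, knockout over control, of the 9 enzymes tested under 8 ways of scaling the libraries, with the median of all features as a dashed line. Rings mark an adjusted p under 0.05 and appear on Cpt2, Ech1 and Eci1 alone, while each enzyme keeps its side of the dashed line.

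The authors' deposited table, made with DESeq2, lists log2 fold changes of -1.38 for Cpt2 (adjusted p = 0.00599), -1.73 for Ech1 (adjusted p = 0.000591) and -1.52 for Eci1 (adjusted p = 0.024). These 3 passed 0.05 in the authors' deposited table, where 2.07% of 4105 rows with an adjusted p did so on the lower side. The authors' deposited table gives Etfdh at -0.70, Acadvl at -0.29, Acadm at -0.24, Acadl at 0.28, Hadha at 0.38 and Hadhb at 0.44, none of which passed. Both sets of values come from the same libraries.

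Of 71 other genes of fatty acid handling, 29 had enough counts to test and 3 were called by edgeR, 2 higher and 1 lower. Their median log2 fold change was -0.19. Over all 1602 features tested 9.86% were called, so the count of 3 in 29 is no result about the list. Acot2, a mitochondrial thioesterase that frees fatty acids from CoA in the matrix, stood at 17.6, 11.9 and 13.9 scaled counts in the controls and 61.6, 65, 79.1 and 54.1 in the knockouts. Every knockout was at least 3 times the highest control in scaled counts. It rose with a log2 fold change of 2.18 ± 0.28 (SE; adjusted p = 0.00663, edgeR), and Acot1, which shares 32.6% of the 25-base stretches of Acot2, held at most 3 counts per library. Without control 2 the adjusted p of Acot2 was 0.05002, just past the threshold.

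Pdk4, the kinase that shuts off pyruvate dehydrogenase during fasting and a PPAR target, had 33.3, 28.1 and 43 scaled counts in the controls and 78.8, 141, 189 and 107 in the knockouts. The groups were well apart, and it rose with a log2 fold change of 1.89 ± 0.41 (SE; adjusted p = 0.0307, edgeR). Lpin1, a phosphatidate phosphatase that also acts as a coactivator of PPAR target genes, was tight in both groups, at 23.5, 21.8 and 25.3 in the controls and 13.7, 13.4, 12.5 and 13.8 in the knockouts. It fell by 0.80 ± 0.19 (SE) on the log2 scale (adjusted p = 0.0479, edgeR). The call on Lpin1 was lost when any 1 library was left out (adjusted p 0.0516 to 0.154), and that on Pdk4 remained only without knockout 1 or knockout 4 (0.0264 to 0.132 over the 7 libraries). DESeq2 on the main scaling did not call Lpin1, nor did edgeR with nuclear protein-coding genes fitted alone. The authors' deposited table lists Lpin1 at -1.02 (adjusted p = 0.106, DESeq2).

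Of the uptake genes, 0 of 4 tested were called by edgeR under the main scaling and 2 had an unadjusted p under 0.05, while DESeq2 called Lpl. Over all features edgeR called 9.86% and gave 27.7% an unadjusted p under 0.05, and DESeq2 called 3.63% lower. Lpl, the lipoprotein lipase that frees fatty acids from circulating triglyceride, had 632, 1207 and 1437 scaled counts in the controls and 421, 197, 257 and 348 in the knockouts, with no overlap. Its log2 fold change was -1.84 ± 0.56 (SE; adjusted p = 0.076, edgeR). Lpl passed in DESeq2 (adjusted p = 0.00824), with nuclear protein-coding genes fitted alone (0.00377) and with the small RNA covariate (0.00312, both edgeR), and the authors' deposited table lists it at -2.01 (adjusted p = 0.000181). Fabp3, the heart fatty acid-binding protein, had a log2 fold change of 0.92 ± 0.38 (SE; adjusted p = 0.16, edgeR), and Vldlr, a lipoprotein receptor, -0.58 ± 0.26 (SE; adjusted p = 0.201). Endothelial markers, which mark cells next to which Lpl acts, summed to 153 to 244 scaled counts in the controls and 67.2 to 147 in the knockouts (6 of 6 detected), and their part was not tested.

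The tested genes of acyl-CoA synthesis and carnitine handling, 4 of 11, all lay slightly on the lower side. Acsl1, the synthetase that makes long-chain acyl-CoA, was at -0.19 ± 0.33 (SE), the carnitine carrier Slc25a20 at -0.55 ± 0.24 and Acacb, which makes the malonyl-CoA that inhibits Cpt1b, at -0.49 ± 0.28, on the log2 scale (adjusted p 0.19 to 0.795, edgeR). None of the 4 was called, and none had an unadjusted p under 0.05, against 9.86% and 27.7% of all features. Among the other matrix enzymes 1 of 10, Acot2, was called, near the 9.86% of all features. The thiolase Acaa2 was at -0.93 ± 0.39 (SE; adjusted p = 0.171, edgeR) and Etfa, the alpha subunit of electron transfer flavoprotein, at -0.87 ± 0.37 (SE; adjusted p = 0.179). Of the alternatives, Acaa2 passed only with the small RNA covariate (adjusted p = 0.0231, edgeR), where 27.7% of all features were called. The authors' deposited table lists Acaa2 at -1.18 (adjusted p = 0.0278, DESeq2), with 2.07% of its rows called lower. The ketone body enzymes Acat1 (-0.67) and Oxct1 (-0.15) did not pass.

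Of the lipid droplet genes, 3 of 4 tested lay on the higher side, with 0 of 4 called by edgeR and 2 at an unadjusted p under 0.05. Of all 1602 features tested 1013 lay on the higher side and 27.7% were at an unadjusted p under 0.05, so these shares are no result about the list. Plin4, a droplet coat protein, had a log2 fold change of 0.88 ± 0.25 (SE; adjusted p = 0.0594), Abhd5, the activator of triglyceride lipase, 1.54 ± 0.55 (SE; adjusted p = 0.114), and that lipase, Pnpla2, 0.89 ± 0.41 (SE; adjusted p = 0.21). Adipocyte markers were low, at 15.6 to 25.4 summed scaled counts in the controls and 2.24 to 17.1 in the knockouts, with Lep and Retn at 0. Among regulators, the estrogen-related receptor gene Esrrg had a log2 fold change of 1.29 ± 0.37 (SE; adjusted p = 0.0604, edgeR) and the coactivator gene Ppargc1a 0.57 ± 0.33 (SE; adjusted p = 0.459).

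**Figure D5:**
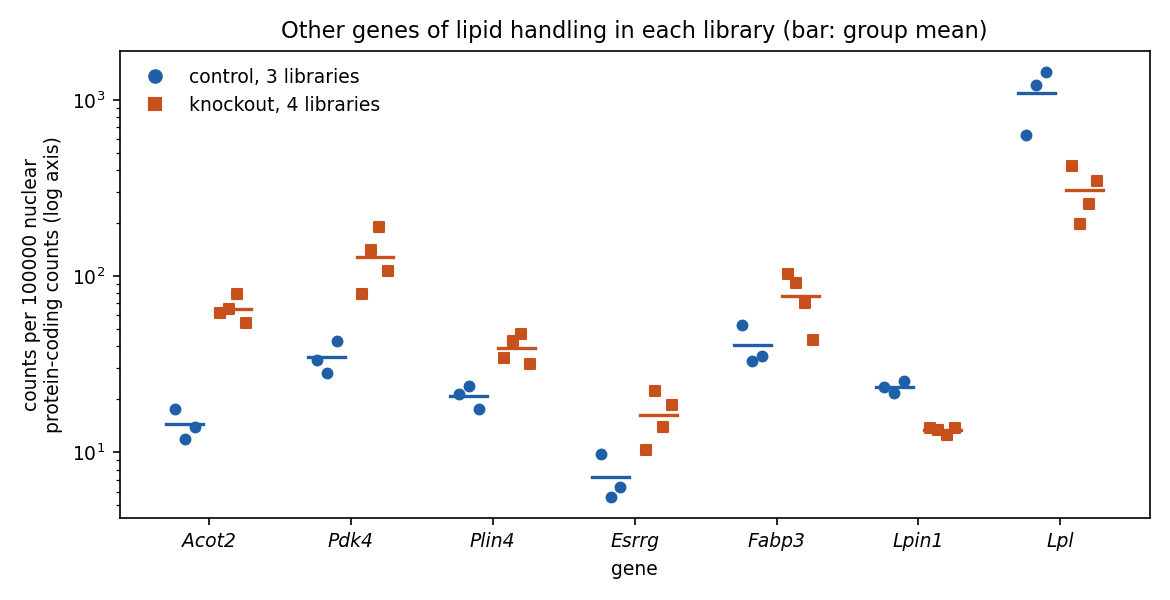
Scaled counts (counts per 100000 nuclear protein-coding counts, log axis) of 7 other genes of lipid handling in 3 control (circles) and 4 knockout (squares) libraries, with bars at the group means. Acot2 and Pdk4 are higher and Lpin1 lower in every knockout, and Fabp3 overlaps between the groups.

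Other mitochondrial and cytosolic fuel pathways were read from the same fit. There, 9.86% of all 1602 features were called (8.3% higher and 1.56% lower), and 27.7% had an unadjusted p under 0.05. Of the citric acid cycle enzymes, 0 of 17 tested were called by edgeR, 1 had an unadjusted p under 0.05, and their median log2 fold change was -0.02, the same as for the fatty acid oxidation enzymes. Of the enzymes that break down branched-chain amino acids, 1 of 5 tested was called: Ivd, isovaleryl-CoA dehydrogenase, which also passes its electrons to Etfdh, fell by 1.79 on the log2 scale (adjusted p = 0.0191). The 5 had a median of -0.42. Of the glycolysis enzymes, 3 of 13 tested were called. Hk1, a hexokinase, rose by 1.77 and Pfkp, a phosphofructokinase, by 2.61, while Eno3, the muscle enolase, fell by 1.58 on the log2 scale (adjusted p 0.0178, 0.0335 and 0.044, edgeR). Each of these 4 calls was lost when at least 1 library was left out, and all 4 were lost without control 2.

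The shape over the 7 libraries was compared with that of 1313 nuclear protein-coding genes, using log2 scaled counts centred on each gene's mean and the root mean square distance from the mean profile of the 9 enzymes. Nearest were Atp5a1, the alpha subunit of the ATP synthase catalytic core, at 0.101, Acsl1 at 0.109, Atp5d, another ATP synthase subunit, at 0.129, Sdha, a subunit of succinate dehydrogenase, at 0.147, and Ndrg2 at 0.151. The median distance of all these genes was 0.626. Among the enzymes themselves Acadvl, at 0.174, and Etfdh, at 0.175, were nearest to their common mean and Ech1, at 0.646, and Cpt2, at 0.591, farthest. The common mean joins enzymes that were lower with enzymes that were higher in the knockouts, so group differences can cancel in it. By a separate measure, the summed enzymes were highest in control 1 (873) and knockout 1 (873). They were lowest in control 2 (504) and knockout 4 (483). Within each group nuclear protein-coding genes took the smallest share of total counts in control 1 and knockout 1. The largest share was in control 2 and knockout 4.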

How the data were processed

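Small RNA from crude heart mitochondria was sequenced single-end on an Illumina MiSeq, per the labels' protocols. The submitters' processing notes name the mm10 build, DESeq2 1.14.1 in R 3.3.2, featureCounts, Bowtie2, bedtools, cutadapt 1.10 and SAMtools 1.3.1. The treatment of multiply mapped reads and of strand is not given in the sources. The authors deposited raw counts per gene for each library, which were analysed here, and 1 table of their own DESeq2 comparison. In the authors' deposited table the fold changes are log2 values, with p-values, a mean normalized signal per gene and a test score. The authors' normalized counts were not used.

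Counts were tested with edgeR 4.0.16 (quasi-likelihood, two-sided, Benjamini-Hochberg over all 1602 features kept by filterByExpr at a minimum count of 10), with the sum of nuclear protein-coding counts as library size. Fold changes carry edgeR's prior count, and the SE is the log2 fold change divided by the square root of F. Members were matched by symbol and identifier; Hadha and Eci1 matched GENCODE on the identifier without its version. Besides the enzymes and Tefm, the text names every called gene of the other pathway lists, the 3 with the smallest p in each, called genes of the comparison lists, and the 5 nearest profiles; 1 gene that the rule names is not reported here. The members and lists were chosen with earlier results of these data known. On data simulated for knockout against control (1574 features tested), 6.98% of genes changed 2-fold and 57.3% of genes changed 4-fold were called, with 3 false calls. No 2 libraries of the same group agreed within counting noise (chi-square per degree of freedom 2.47 to 13). Pairs across the groups were not compared. The replicate numbers did not pair the libraries. Alternatives covered scaling, filters, DESeq2 1.42.0, a covariate and left-out libraries.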

Additional observations from a re-analysis of the deposited data

Results flagged for a closer look

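Among the 4 knockout libraries, 2 of 38 named genes tested for a library standing apart had one, and chance alone would mark about 1 in 20. Etfa stood at 17.9 scaled counts in knockout 2, against 9.72 to 10.6 in the other 3 knockouts, on 8 counts in that library. Pfkp stood at 44.8 scaled counts in knockout 2, against 25 to 27.4 in the other 3. No fatty acid oxidation enzyme of the 10 had such a library among the knockouts.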

How the results depend on the processing

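The features called numbered 158 (133 higher, 25 lower). They came to 11 with total counts, 14 with mitochondrially encoded counts and 0 with microRNA counts as the scale (edgeR; 22 at an unadjusted p under 0.05 in the last), 265 without a filter, 285 with nuclear protein-coding genes alone, 244 with DESeq2, 444 with the small RNA ratio as covariate, and 13 to 160 with 1 library left out. The split was 83 higher and 44 lower with TMM over nuclear protein-coding genes, 84 and 32 with TMM over all features, 65 and 52 with size factors, and 93 and 47 without the 10 most abundant genes. The enzymes called numbered 0, and 3 with either TMM scaling, size factors, the 10 most abundant left out, nuclear protein-coding genes alone or DESeq2, 2 at a minimum count of 20, 4 with the covariate, and 0 to 1 with 1 library left out (1 without knockout 1 and 1 without knockout 2 under TMM as well). The other pathway genes called numbered 3, and 0 with total, mitochondrial or microRNA scaling, 6 with nuclear protein-coding genes alone, 11 with the covariate and 0 to 3 with 1 library left out. The comparison list genes called numbered 4, and 0 under the same 3 scalings and 0 to 3 with 1 library left out. With the replicate number as a block (correlations of same-numbered libraries 0.249, -0.262 and 0.176, so the numbers were not taken as pairs), 15 features, 0 enzymes, 0 other pathway genes and 0 comparison list genes were called.

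Cpt2, Ech1 and Eci1 stayed below 0 and Acadl, Hadha and Hadhb above 0 in every alternative run on them. Signs that turned belonged to log2 fold changes near 0 or to the scalings that raised the median of all features to 0.89 or more; other causes were not tested. With total counts the values were Acadvl 0.74, Etfdh 0.29, Vldlr 0.15, Slc25a20 0.19, Acacb 0.54, Acsl1 0.55, Oxct1 0.47, Atp5a1 0.54, Atp5d 0.55, Sdha 0.36 and Ndrg2 0.34. With mitochondrially encoded counts they were Acadvl 0.95, Etfdh 0.51, Lpin1 0.24, Vldlr 0.41, Slc25a20 0.41, Acacb 0.79, Acsl1 0.76, Etfa 0.12, Acat1 0.0081, Oxct1 0.69, Atp5a1 0.75, Atp5d 0.78, Sdha 0.57 and Ndrg2 0.53. With microRNA counts they were Acadvl 0.87, Etfdh 0.26, Lpin1 0.034, Vldlr 0.067, Slc25a20 0.16, Acacb 0.77, Acsl1 0.66, Etfa 0.15, Oxct1 0.39, Atp5a1 0.56, Atp5d 0.56, Sdha 0.50 and Ndrg2 0.46. Acadm was at -0.11 with TMM over all features, -0.14 with TMM over nuclear protein-coding genes, -0.18 with size factors, -0.10 without the 10 most abundant and -0.052 with its pseudogene added. Acadvl was at 0.093 and Oxct1 at 0.027 with the block, and Acadvl at 0.016 with the covariate. With 1 library left out, Acadvl ran from -0.20 to 0.21, Acadm from -0.10 to 0.29, Acsl1 from -0.37 to 0.053, Atp5a1 from -0.28 to 0.0096, Ndrg2 from -0.59 to 0.051 and Oxct1 from -0.30 to 0.0085. The sum over Hadhb and Gm13910, the pseudogene sum for Acadm and the TMM fits with a library left out were chosen after seeing the data. Depth limits the rarer enzymes most, with 3 to 4 counts for Eci1 in knockouts 1 and 2 and 1 to 2 for Cpt1b throughout.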
